A study of Bos taurus and Sus scrofa with 10 samples.

Results

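The genes encoded by the mitochondrial genome were described in RNA sequencing of oocytes and preimplantation embryos from cow (Bos taurus) and pig (Sus scrofa). They were taken as every row placed on chromosome MT in the expression table of each species, whatever its value, which gave 67 of 44712 rows: 34 of 22845 in cow and 33 of 21867 in pig. Libraries of each species came from 5 stages: the oocyte, embryos of 2-4 cells and of 8-16 cells, the morula (a compacting ball of cells) and the blastocyst (with a fluid cavity, an inner cell mass and an outer trophectoderm). Every group was 1 library of total RNA, so no difference between stages could be tested against replicate spread, and the intervals given are 95% Wilson binomial intervals that cover counting error only. Strain, breed, age, how embryos were produced and how many were pooled are not given in the sources used here, nor is any treatment.

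Mitochondria carry a small circular genome of their own. It codes for core subunits of the respiratory chain (complex I, complex III and complex IV) and of the ATP synthase (complex V), for the 2 ribosomal RNAs of the mitochondrial ribosome, and for the tRNAs that ribosome needs. Both strands are transcribed as long precursors, from which the tRNAs are cut out and thereby release the mRNAs and rRNAs between them. The oocyte passes a very large store of mitochondria to the embryo, and the cleaving embryo divides this store among its cells.

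In cow, 10 rows carried the name of a mitochondrial mRNA, and 24 carried an identifier only. The start and end of 32 cow rows were equal to those of 1 mitochondrial gene in the RefSeq table of assembly ARS-UCD2.0, which classes 2 of the identifier rows as rRNA and 22 as tRNA. The other 2 cow rows were wider than the gene they are named after. The row named ATP8 (MT, 8129 to 9750, 1622 bases) holds 3 genes, ATP8, ATP6 and COX3, and the ND4L row (MT, 10239 to 11906, 1668 bases) holds ND4L and ND4. Neither table has an MT row named ATP6, COX3 or ND4. The cow table writes COX2, ND3, ND4L and CYTB as MT-CO2, MT-ND3, MT-ND4L and cytb, and the pig spelling is used here for both species. The pig rows had no such reference, and their 2 long identifier rows (MT, 1246 to 2205 and 2274 to 3844, 960 and 1571 bases) were classed as rRNA because they lie before ND1, where the cow rRNA rows lie (MT, 431 to 1385 and 1453 to 3023, 955 and 1571 bases). The 12 mRNA and rRNA rows have the same order in both tables. The shorter rRNA row of each species is called the short rRNA here and the other the long rRNA. The remaining 21 pig rows, of 59 to 131 bases, were classed as tRNA by size. Coordinates are those of the deposited tables, for which the submitters' processing notes list the builds UMD3.1 and Sscrofa11.1, the first taken here as cow and the second as pig.

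The shallowest library was the pig morula with 3002751 reads and the deepest the cow blastocyst with 14182046. Levels are given as RPM, the reads of a row for every 1000000 that its library holds. Oocyte markers followed the labels: 12 of 12 had at least 1 RPM in the cow oocyte library and 0 of 12 in the cow blastocyst library, against 10 of 10 and 3 of 10 in pig. All 9 blastocyst markers found in each table had at least 1 RPM in the blastocyst library of that species. Of cumulus and granulosa cell markers, between 7 and 11 of 15 reached 1 RPM in a cow library, against 6 to 8 of 12 in a pig library. Their summed level spanned 114 to 1004 RPM over the cow and 143 to 2176 RPM over the pig libraries, and was highest in the blastocyst library of both species. FOXL2 and FST, 2 markers of granulosa cells, had 0 reads in all 5 cow libraries. Yet 10 of the 15 cow markers reached 1 RPM in the oocyte and 11 in the 2-4 cell library. The summed level of the cow markers was 558 RPM in the oocyte, 482 in the 2-4 cell, 133 in the 8-16 cell and 114 in the morula library. The part of these markers in the values below was not tested.

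Mitochondrial rows took a larger share of the reads in the blastocyst library than in any earlier library of the same species. In cow the share was 4.40% in the oocyte, 2.74% (2.72 to 2.75) in the 2-4 cell, 10.7% (10.67 to 10.72) in the 8-16 cell, 9.15% (9.12 to 9.18) in the morula and 30.2% in the blastocyst library. In pig it was 6.06%, 12.4% (12.40 to 12.46), 10.9% (10.85 to 10.92), 16.3% (16.22 to 16.30) and 18.6% in the same order. The course was not even: the cow 2-4 cell library was below the oocyte library, while the pig 2-4 cell library was 2.05-fold above it. From oocyte to blastocyst the summed level was 6.86-fold higher in cow and 3.07-fold higher in pig. Relative to the reads of all other genes it was 9.06-fold and 3.32-fold higher. That scaling moved the median change of all genes over the same interval by 0.38 in cow and 0.12 in pig on the log2(RPM + 1) scale. In such bulk libraries fewer cells and less RNA per cell cannot be told apart, and neither can more mitochondria and more RNA per mitochondrion.

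**Figure D1:**
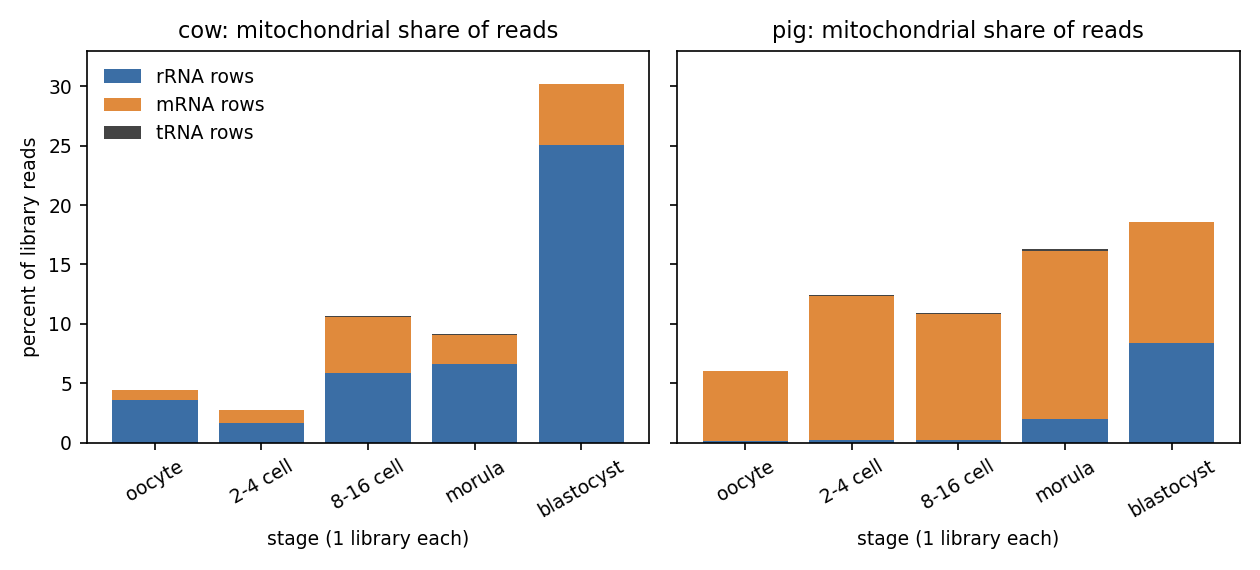
Stacked bars give the percent of library reads (vertical axis, from 0) in mitochondrial rRNA, mRNA and tRNA rows for each stage (horizontal axis, 1 library each) in cow and pig. The cow blastocyst bar reaches 30.2% and is mostly rRNA, while in pig rRNA is visible only in the morula and blastocyst bars.

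The classes behind these shares differed between the species. Cow mitochondrial reads were mostly rRNA, which made up 81.9% of them in the oocyte, 60.4% in the 2-4 cell, 54.5% in the 8-16 cell, 71.9% in the morula and 83.0% in the blastocyst library. Pig mitochondrial reads were nearly all mRNA at first: 97.7% in the oocyte, 97.7% in the 2-4 cell and 97.3% in the 8-16 cell library, then 87.0% in the morula and 54.6% in the blastocyst library. The tRNA rows took between 0.0962% and 1.05% of mitochondrial reads in cow and between 0.169% and 0.662% in pig.

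The rRNAs form the core of both subunits of the mitochondrial ribosome, the shorter one in the small subunit and the longer one in the large subunit. In cow the long rRNA was at 26134 RPM in the oocyte, 7164 in the 2-4 cell, 29151 in the 8-16 cell and 38845 in the morula library, and reached 187709 RPM at the blastocyst. The cow short rRNA was at 9898, 9380, 29169, 26906 and 62984 RPM. Both rows were thus highest in the blastocyst library, and the lowest library of both was the 2-4 cell embryo. At the first step the long rRNA was 3.65-fold lower and the short rRNA nearly level, a change of -1.87 against -0.08 on the log2(RPM + 1) scale. The ratio of long to short rRNA reads therefore moved from 2.64 (2.61 to 2.67) in the oocyte to 0.764 (0.753 to 0.775) in the 2-4 cell library, and stood at 0.999, 1.44 and 2.98 (2.97 to 2.99) at the later stages.

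In pig both rRNA rows were low until the 8-16 cell stage and rose at each of the last 2 steps. The pig long rRNA was at 694 RPM in the oocyte, 1566 in the 2-4 cell, 1415 in the 8-16 cell and 14114 in the morula library, and reached 58379 RPM at the blastocyst. The pig short rRNA was at 437, 601, 789, 6018 and 25735 RPM. Among the 3 early libraries the long rRNA was 2.25-fold higher in the 2-4 cell than in the oocyte library (1528 to 1604 against 667 to 723 RPM), and the morula and blastocyst libraries stood above all 3. With scaling to the median of the other genes the last step of the long rRNA was 1.98, just under the call threshold of 2 on the log2(RPM + 1) scale. From oocyte to blastocyst the long rRNA was 84.1-fold and the short rRNA 58.9-fold higher. The long to short ratio stayed between 1.59 (1.49 to 1.70) in the oocyte and 2.60 (2.49 to 2.73) in the 2-4 cell library, so the drop seen in cow at the 2-4 cell stage has no counterpart in pig.

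**Figure D2:**
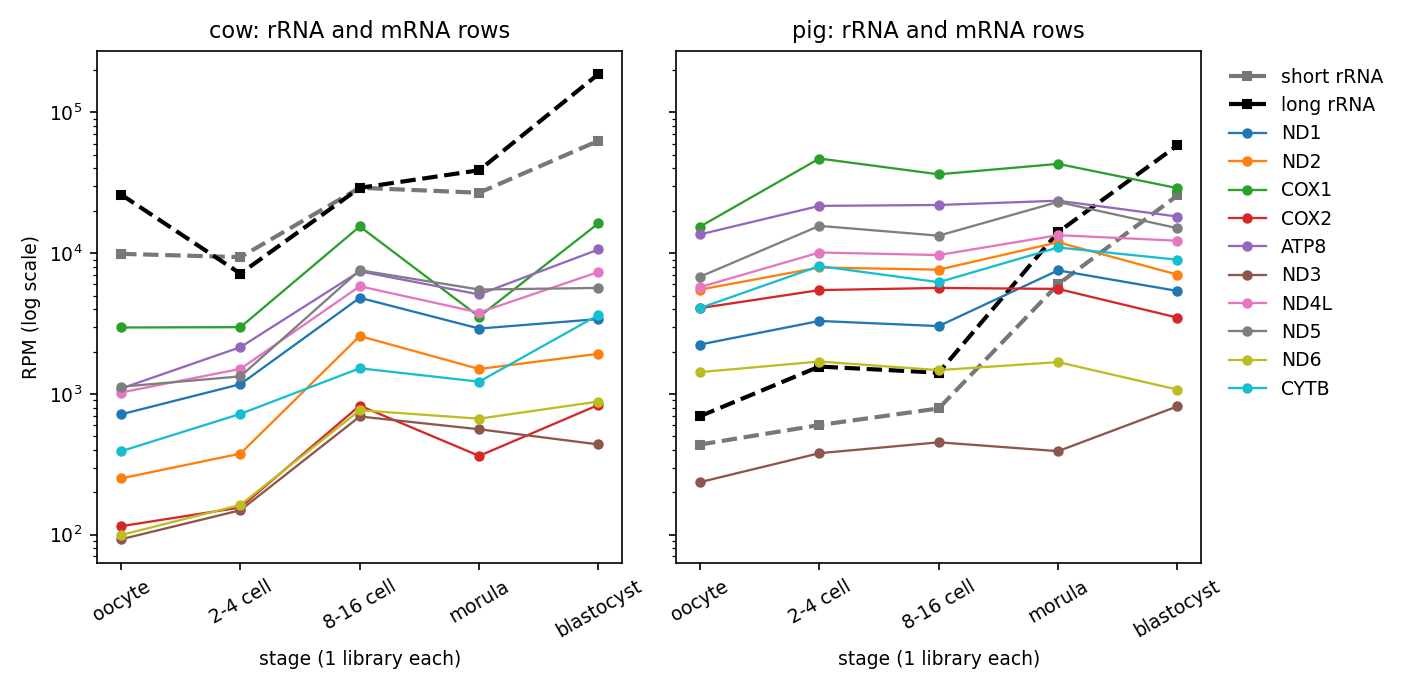
Lines give the level of each mitochondrial rRNA row (dashed, squares) and mRNA row (solid, circles) in RPM on a log axis, by stage, with 1 library per point. In cow both rRNA lines lie above all mRNA lines in every library; in pig they start at 437 and 694 RPM among the lowest lines and end at 25735 and 58379 RPM.

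Set against mRNA, rRNA reads of both rows together were in excess in every cow library and in deficit in every pig library. With the long rRNA left out, the cow ratio was 0.876 in the 2-4 cell and 0.614 in the 8-16 cell library, so that the excess held in the other 3 only. The pig blastocyst library had 313730 rRNA and 377986 mRNA reads, 108173 of the latter in COX1. The deficit there is therefore lost when COX1 is left out. The cow ratio of rRNA to mRNA reads was 4.58 (4.53 to 4.63) in the oocyte, 1.55 (1.53 to 1.56) in the 2-4 cell, 1.23 (1.22 to 1.23) in the 8-16 cell, 2.61 (2.59 to 2.63) in the morula and 4.91 (4.89 to 4.92) in the blastocyst library. The cow course was a dip, with similar values at both ends. Its blastocyst value was 1.07-fold its oocyte value, and 0.907-fold when rows that overlap another row, COX1, ND5 and ND6, were left out, so the direction between both ends is not settled. The pig ratio was 0.0191 (0.0185 to 0.0197) in the oocyte, 0.0179 (0.0175 to 0.0182) in the 2-4 cell, 0.0208 (0.0203 to 0.0213) in the 8-16 cell, 0.142 (0.141 to 0.144) in the morula and 0.830 (0.826 to 0.834) in the blastocyst library. This was a rise of 43.4-fold from oocyte to blastocyst, and of 34.4-fold with the long rRNA left out. The 3 early pig values lay close together, and the step to the morula multiplied the ratio by 6.84 and the next one by 5.83.

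Per base of gene span, which allows for the longer total span of the mRNA rows, rRNA was 20.6, 6.94, 5.51, 11.7 and 22.05 times as dense as mRNA in the cow libraries in stage order. In pig the same measure was 0.0858, 0.0801, 0.0934, 0.639 and 3.73. Only in the blastocyst library did the pig rRNA rows hold more reads per base than the pig mRNA rows. How the 2 species' libraries compare in the capture of rRNA is not given in the sources used here, and its part in the gap between species was not tested.

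**Figure D3:**
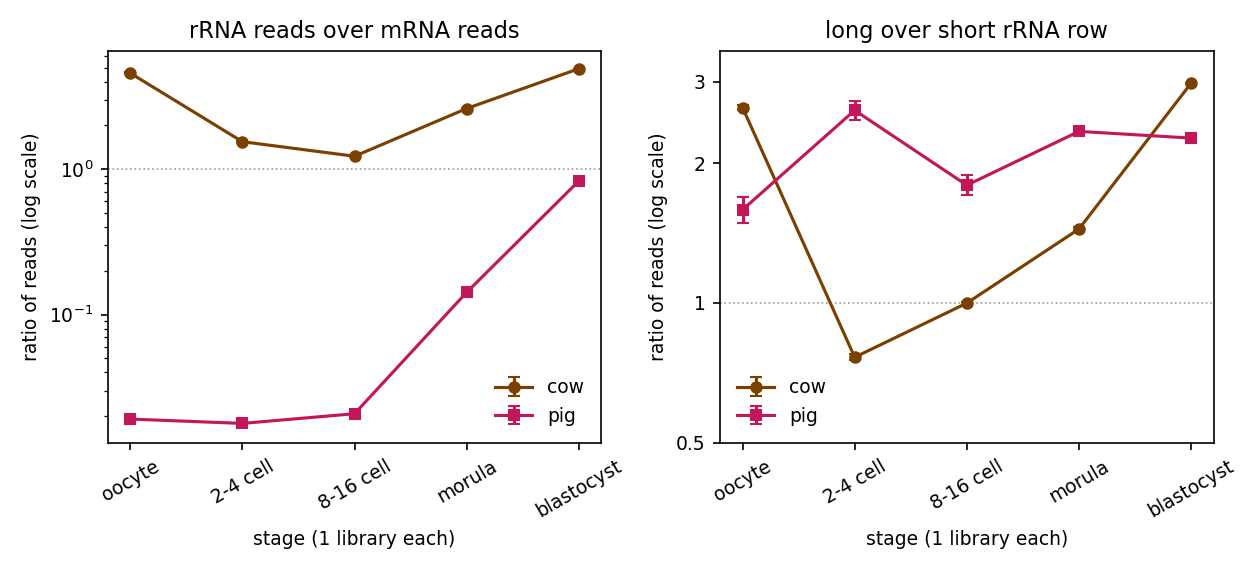
The left panel gives the ratio of rRNA to mRNA reads and the right panel the ratio of long to short rRNA reads, both on log axes, by stage for cow (circles) and pig (squares); bars are 95% Wilson intervals from the counts and are mostly smaller than the points. The cow rRNA to mRNA ratio dips to 1.23 at the 8-16 cell stage, and the pig ratio climbs from 0.0208 at the 8-16 cell stage to 0.830 at the blastocyst.

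The mRNA rows of complex I, the NADH dehydrogenase that feeds electrons into the chain, were highest in the 8-16 cell or blastocyst library in cow. Cow ND1 (MT, 3101 to 4056) was at 716, 1173, 4823, 2915 and 3404 RPM in stage order. Cow ND2 (4266 to 5307) was at 251, 377, 2579, 1504 and 1930 RPM. Both had their highest value in the 8-16 cell library and their lowest in the oocyte library. Cow ND3 (9823 to 10168) was at 92.7, 149, 691, 561 and 438 RPM, and was the only cow mRNA row lower in the blastocyst than in the morula library. The cow ND4L row, which includes ND4, was at 1023, 1507, 5821, 3788 and 7356 RPM. Cow ND5 (12109 to 13929) was at 1124, 1333, 7572, 5519 and 5665 RPM, its morula and blastocyst values lying within 1.03-fold of each other. ND6 (13913 to 14440) is the only mRNA row on the minus strand and overlaps the end of ND5; in cow it was at 99.4, 163, 766, 667 and 883 RPM. Within complex I, then, ND4L and ND6 peaked at the blastocyst and ND1, ND2, ND3 and ND5 at the 8-16 cell stage.

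The same complex I rows followed a flatter course in pig. Pig ND1 (3922 to 4876) was at 2244, 3300, 3034, 7553 and 5392 RPM, and its morula value was 2.49-fold above the 8-16 cell value, the largest such step among the pig mRNA rows. Pig ND2 (5087 to 6128) was at 5512, 7917, 7639, 11968 and 7039 RPM. Pig ND3 (10653 to 10998) was at 236, 379, 453, 392 and 816 RPM. ND3 was the only pig mRNA row whose highest library was the blastocyst. The pig ND4L row (11069 to 12736) was at 5742, 10116, 9708, 13437 and 12267 RPM, and pig ND5 (12935 to 14755) at 6807, 15646, 13322, 23153 and 15054 RPM. Pig ND6 (14739 to 15266) was at 1429, 1699, 1476, 1684 and 1073 RPM, the narrowest range of the pig mRNA rows. ND1, ND2, ND4L and ND5 shared a highest value in the morula library, while ND6 was lowest in the blastocyst library.

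CYTB codes for cytochrome b, the mitochondrially encoded subunit of complex III. In cow it was at 392, 721, 1521, 1222 and 3639 RPM, so that the blastocyst library stood 2.98-fold above the morula library. In pig CYTB was at 4078, 8100, 6223, 10988 and 8989 RPM, with its highest value in the morula library.

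COX1 and COX2 code for the catalytic core of complex IV, cytochrome c oxidase. Cow COX1 (5687 to 7231) was at 2966 RPM in the oocyte (2918 to 3014), 2981 in the 2-4 cell (2931 to 3032), 15499 in the 8-16 cell (15395 to 15603), 3539 in the morula (3481 to 3599) and, at the blastocyst, 16318 RPM (16252 to 16384). The oocyte and 2-4 cell values overlap in their counting intervals, and the morula value lies close to them. COX1 was 4.38-fold lower in the cow morula than in the cow 8-16 cell library, and 4.61-fold higher again in the blastocyst library. Cow COX2 (7374 to 8057) was at 115, 156, 826, 363 and 836 RPM, with a change of -1.18 on the log2(RPM + 1) scale at the morula. The other 8 cow mRNA rows were lower by 0.20 to 0.78 at that step. As a share of cow mRNA reads, COX1 held 37.7% in the oocyte, 27.8% in the 2-4 cell, 32.6% in the 8-16 cell, 14.1% (13.8 to 14.3) in the morula and 31.9% in the blastocyst library.

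Pig COX1 (6511 to 8055) was at 15454, 47085, 36367, 43141 and 29002 RPM. It was the mitochondrial row with the most reads in the first 4 pig libraries and second to the long rRNA in the blastocyst library. Its share of pig mRNA reads was 26.1%, 38.8%, 34.3%, 30.5% and 28.6% in stage order, with no low value at the morula. Pig COX2 (8203 to 8890) was at 4072, 5468, 5664, 5576 and 3486 RPM. COX2 was thus lowest in the blastocyst and oocyte libraries and level in the 3 between them.

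The ATP8 row covers both mitochondrial subunits of the ATP synthase, ATP8 and ATP6, and COX3 of complex IV, at least in cow. Its cow level was 1092, 2149, 7433, 5096 and 10630 RPM. Its pig level (8959 to 10583, 1625 bases) was 13602, 21698, 22014, 23610 and 18223 RPM. Among cow mRNA rows it showed the largest increase from oocyte to blastocyst, 9.73-fold. Values of single genes within this row, and within the ND4L row, could not be separated.

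A row was called changed when its log2(RPM + 1) differed by at least 2, which is 4-fold in RPM + 1. At least 1 RPM in one of both libraries was also needed. A row at low RPM can thus differ by over 4-fold in RPM without a call. From oocyte to blastocyst 19 of 34 mitochondrial rows compared were called higher in cow, where 22.6% of all genes compared were called higher. No row was called lower, against 18.7% of all genes. The 19 were both rRNA rows, all 10 mRNA rows and 7 tRNA rows, and the median change was 2.24 over the members and 0.18 over all genes. Of these tRNA rows only that at 7229 to 7299 had more than 4 reads in the oocyte library (32). The others had 0 to 4 reads there, so their calls are poorly resolved. The changes of the cow mRNA rows lay between 2.23 (ND3) and 3.28 (ATP8), with a median of 2.85. In pig 2 of 30 rows compared were called higher, with 27.2% of all genes as background, and 2 were called lower, with 19.9% as background. The 2 higher rows were the rRNAs and the 2 lower ones tRNA rows. At a threshold of 1, or 2-fold in RPM + 1, 11 pig rows were called higher (42.8% of all genes) and 5 lower (32.9%). Changes of the pig mRNA rows ran from -0.41 (ND6) to 1.79 (ND3) with a median of 1.0, and the median over all genes was 0.43.

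By step, the cow rows moved most from the 2-4 cell to the 8-16 cell stage, where 26 of 34 were called higher (13.1% of all genes) and 0 lower (14.8%). At that step 7 of 10 mRNA rows were called higher, from ND1 at 2.04 to ND2 at 2.77; CYTB at 1.08, ATP8 at 1.79 and ND4L at 1.95 were not. Scaled to non-mitochondrial gene reads, ATP8 was at 2.01 and ND4L at 2.17. The first cow step called 0 of 29 rows compared in either direction, against 0.205% of all genes higher and 0.196% lower. At the step to the cow morula 0 rows were called higher (6.91% of all genes) and 1, COX1, lower (5.63%), and all 10 mRNA rows had negative changes. At the step to the cow blastocyst 3 rows were called higher (12.6%), the long rRNA, COX1 and 1 tRNA row, and 3 tRNA rows lower (11.7%). With non-mitochondrial scaling the 3 lower calls were lost. Only at the step to the 8-16 cell stage did the share of cow rows called higher lie above the background. Shares at the other cow steps were below it, but the gaps amount to few rows of 1 genome and were not tested. At the first cow step the background was too low for 0 calls to be telling.

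In pig the first step called 0 of 30 rows higher (3.89% of all genes) and 0 lower (2.29%), although all 10 mRNA rows had positive changes, from 0.25 (ND6) to 1.61 (COX1). Scaling to non-mitochondrial gene reads gave 2 higher calls and scaling to the median of the other genes gave 4. The second pig step called 0 of 31 rows higher (4.82%) and 0 lower (0.724%), with changes of mRNA rows between -0.38 and 0.26. At the step to the pig morula 3 of 32 rows were called higher (12.5%), both rRNAs and 1 tRNA row, and 0 lower (12.1%). At the step to the pig blastocyst 2 of 31 rows, both rRNAs, were called higher (14.4%) and 9 rows, all tRNA, lower (14.6%). Of the 10 mRNA rows 9 had negative changes at this last step, the exception being ND3 at 1.06.

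**Figure D4:**
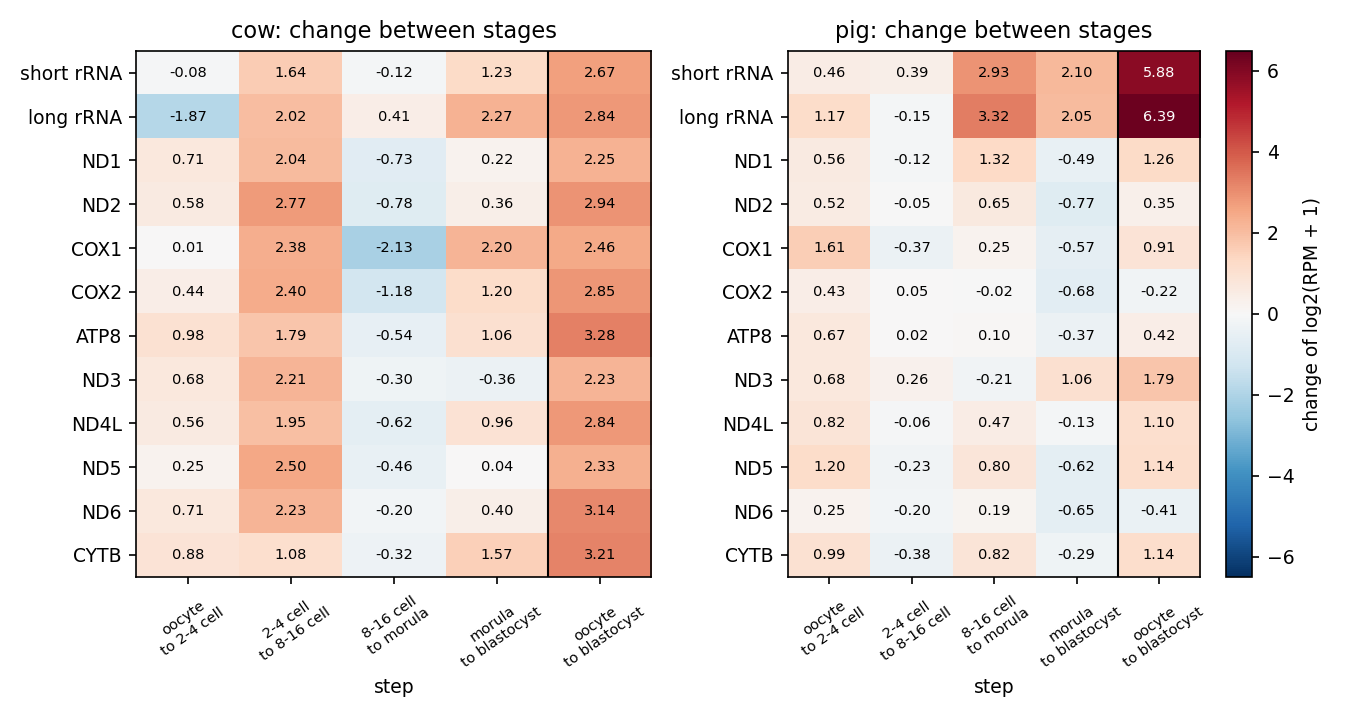
Each cell gives the change of log2(RPM + 1) for 1 rRNA or mRNA row (vertical axis) at 1 step between stages (horizontal axis), red for higher and blue for lower, with the whole course from oocyte to blastocyst right of the black line. Cow rows share a red column at the 8-16 cell stage and cow COX1 stands out in blue at the morula (-2.13); in pig the 2 rRNA rows carry the changes of 2 or more.

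Compared per 1000 bases of span, COX1 was the densest mRNA row in 4 of the 5 cow libraries and in all 5 pig libraries. In the cow blastocyst library the order ran from COX1 at 10562 RPM per 1000 bases through ATP8 (6554), ND4L (4410), ND1 (3561), CYTB (3192), ND5 (3111), ND2 (1852), ND6 (1673) and ND3 (1265) to COX2 (1222), and only ND3 and COX2 overlapped in their counting intervals. In the cow morula library ATP8 (3142), ND1 (3049) and ND5 (3031) led, ahead of COX1 (2291), which was not told apart from ND4L (2271). COX2 was last in all 5 cow libraries. In pig the order of the blastocyst library ran from COX1 (18772) and ATP8 (11214) to ND3 (2359) and ND6 (2033), and ND3 was last in the other 4 pig libraries. COX2 thus differed in place between the tables: it was the third densest mRNA row in the pig oocyte library, at 5918 RPM per 1000 bases, and the last in the cow oocyte library, at 168.

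Across the 10 mRNA rows Spearman's rho of these densities was between 0.685 and 0.976 for pairs of cow libraries and between 0.697 and 0.976 for pairs of pig libraries. Between the species it was 0.212 in the oocyte, 0.442 in the 2-4 cell, 0.358 in the 8-16 cell, 0.345 in the morula and 0.806 in the blastocyst libraries. The rows are neighbours on 1 genome and share each library, so these values are descriptions. By complex, the 6 complex I rows held between 38.5% and 59.4% of cow mRNA reads and between 32.2% and 41.1% of pig mRNA reads, with the highest cow value in the morula library. ND6 held between 1.26% and 2.65% of mRNA reads in cow and between 1.06% and 2.42% in pig.

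The tRNAs bring amino acids to the mitochondrial ribosome. Their genes are short and lie between the others, so a read in such a row may come from a precursor or a neighbour, and the rows are given as reads at a place. Reads per base in tRNA rows were between 4.27% and 17.8% of those in mRNA rows in cow and between 2.33% and 5.20% in pig. In cow the median tRNA row was at 3.75, 2.93, 34.8, 20.8 and 7.02 RPM in stage order. All 22 cow tRNA rows were higher in the 8-16 cell than in the 2-4 cell library, 18 of them by 2 or more, and all 22 were lower in the morula than in the 8-16 cell library. From the 2-4 cell to the 8-16 cell stage their summed level was 9.37-fold higher, against 4.44-fold for the mRNA rows. The cow oocyte library had 4 tRNA rows with 0 reads, which allows up to 0.609 RPM each.

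The cow tRNA rows with the highest mean RPM over the 5 libraries lay between ND4L and ND5 and between ND1 and ND2. The row at 11977 to 12036 was at 19.1, 21.2, 187, 107 and 30.8 RPM, and its neighbour at 11907 to 11976 at 13.4, 14.6, 134, 72.3 and 16.7 RPM. The row at 4197 to 4265 was at 5.48, 6.53, 121, 60.3 and 17.4 RPM. All 3 peaked at the 8-16 cell stage. The largest ranges were those of the 2 overlapping rows at 4057 to 4125 and 4123 to 4194, with 50.4 and 25.04 RPM in the 8-16 cell library and under 1 RPM in the oocyte library, and of the row at 7304 to 7372, with 69.0 RPM at the 8-16 cell stage. The narrowest ranges were those of the rows at 364 to 430 (12.2 to 31.1 RPM), 5376 to 5444 (0 reads to 3.31 RPM) and 15726 to 15791 (3.45 to 23.2 RPM).

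Pig tRNA rows had their highest median in the morula library, with medians of 4.44, 10.2, 13.6, 25.6 and 4.02 RPM in stage order. The row at 8891 to 8957, between COX2 and ATP8, was at 39.4, 84.8, 75.5, 283 and 57.6 RPM. The row at 3845 to 3919, between the long rRNA and ND1, was at 35.2, 116, 131, 162 and 13.9 RPM, and so was lowest in the blastocyst library, where the long rRNA beside it was highest. The row at 10584 to 10652 was at 43.2, 109, 130, 52.6 and 5.63 RPM and the one at 12737 to 12805 at 4.44, 19.1, 31.9, 37.3 RPM and 1 read. The smallest ranges were those of the rows at 6272 to 6346, with 1 read in the 5 libraries together, at 4877 to 4945 (0.888 to 2.21 RPM) and at 15267 to 15335 (7.99 to 27.3 RPM). Between 1 and 2 of the 21 pig rows had 0 reads in each library.

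The tRNA row on the minus strand just after COX1 was the highest tRNA row of the blastocyst library in both species; the cow row was picked here after its values were seen. In cow (7229 to 7299, overlapping the end of COX1) it was at 6.49, 11.7, 59.6, 18.2 and 81.4 RPM, and in pig (8059 to 8129) at 78.5, 152, 95.4, 47.3 and 152 RPM. In cow it held 1154 of the 1712 reads in minus-strand tRNA rows of that library, and in pig 566 of 617. At the step to the morula the cow row had a change of -1.66, with COX1 at -2.13, and both rose at the next. In pig the row and COX1 had opposite signs at both of these steps: the row was 2.02-fold lower and then higher by 1.66 on the log2(RPM + 1) scale, with COX1 at 0.25 and then -0.57. The cDNA kit does not mark strand and the handling of strand is not given in the sources used here, so reads from this tRNA and from a COX1 transcript reaching past its coding end cannot be told apart.

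**Figure D5:**
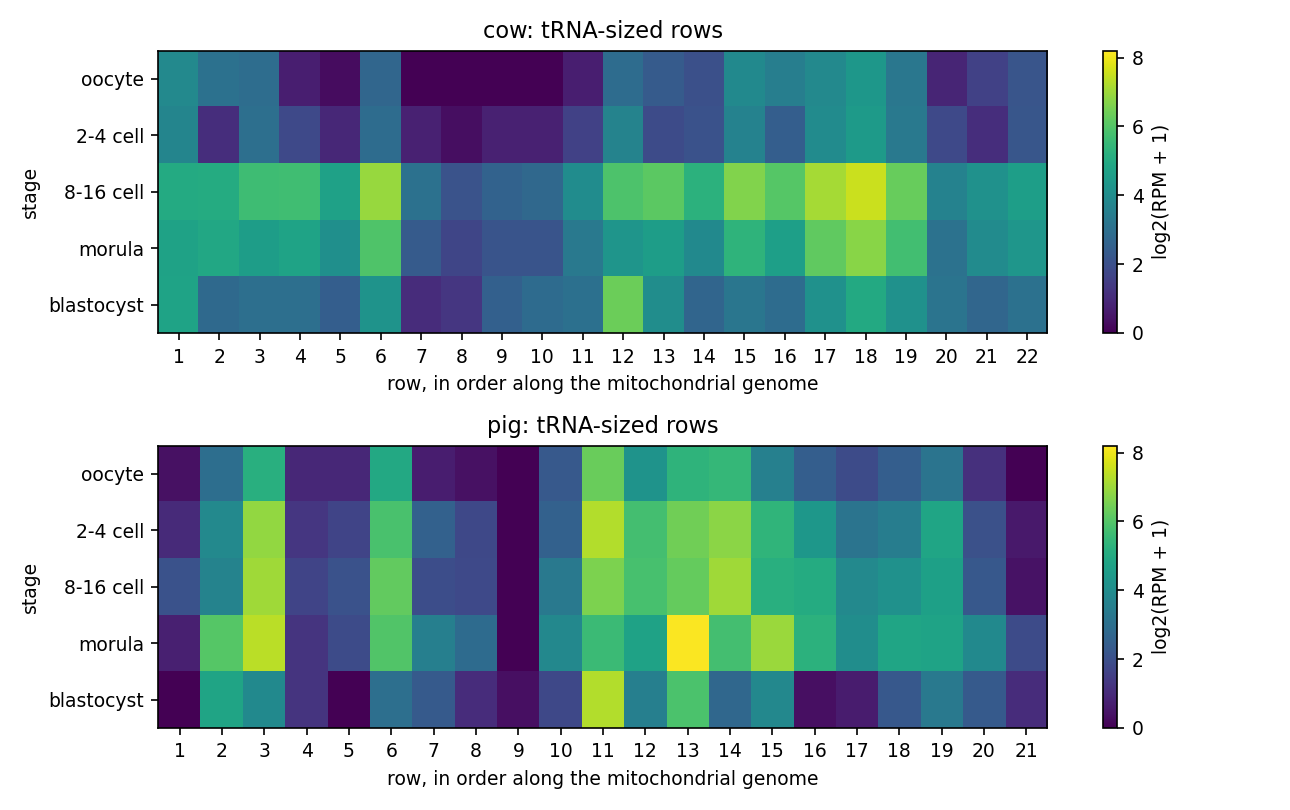
Colour gives log2(RPM + 1) of each tRNA-sized row (horizontal axis, in order along the mitochondrial genome) at each stage (vertical axis, 1 library each) in cow and pig. The cow 8-16 cell band is the brightest, and in both blastocyst bands the row just after COX1 (12 in cow, 11 in pig) is the brightest, at 81.4 and 152 RPM.

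The respiratory chain is built from mitochondrial and nuclear gene products together, and the nuclear subunits were read from a list of complex I to V genes. In cow 51 of 76 subunits compared were called higher from oocyte to blastocyst and 0 lower (22.6% and 18.7% of all genes), with a median change of 2.76 over the list, 0.18 over all genes and 2.85 over the mitochondrial mRNA rows. In pig 36 of 42 were called higher and 0 lower (27.2% and 19.9% of all genes). The pig median was 3.96, against 0.43 over all genes and 1.0 over the mitochondrial mRNA rows. Only 45 genes of this list were found in pig, against 76 in cow, so the counts of both species cover different sets. In pig the nuclear list changed most at the step to the morula, where 28 of 41 were called higher (12.5% of all genes) with a median of 2.35, while the mitochondrial mRNA rows had a median of 0.36. At the first pig step 31 of 32 nuclear subunits had negative changes, with a median of -1.24 against -0.14 over all genes. Of the 32, 5 were called lower (2.29% of all genes). All 10 mitochondrial mRNA rows had positive changes at that step. The cow steps were more even, with nuclear medians of 0.20, 0.54, 0.95 and 1.06 in order. Over all cow genes the medians were 0.27, -0.44, 0.07 and -0.11, so the list lay below all genes at the first step only. Those of the cow mitochondrial mRNA rows were 0.63, 2.22, -0.58 and 0.68.

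The largest nuclear changes in cow were those of NDUFB11 and NDUFC2, complex I subunits, COX5B of complex IV and NDUFB3 of complex I. NDUFB11 went from 0 reads to 39.1 RPM, 64.3-fold above a floor of 3 reads. COX5B went from 4.06 to 197 RPM, NDUFC2 from 2 reads to 47.3 RPM and NDUFB3 from 0.811 to 51.8 RPM. In pig the largest were those of CYC1, NDUFA10, NDUFB10 and COX4I1. CYC1 of complex III went from 1 read to 118 RPM. NDUFA10 of complex I went from 0 reads to 86.3 RPM, 97.2-fold above a floor of 3 reads. NDUFB10 of complex I went from 8.88 to 842 RPM and COX4I1 of complex IV from 3 reads to 158 RPM. The pig spans of CYC1, NDUFB10 and COX4I1 overlap other genes, so part of their reads is uncertain.

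Genes that transcribe, process and maintain the mitochondrial genome were read from a second list. From oocyte to blastocyst 8 of 36 were called higher and 5 lower in cow, and 9 of 30 were called higher and 4 lower in pig. The medians were 0.09 and 0.39, against 0.18 and 0.43 over all genes, and 22.6% and 27.2% of all genes were called higher and 18.7% and 19.9% lower. The list's counts were near or below these shares in both directions in cow, and in pig a little above for higher and below for lower. TFAM, which packages mitochondrial DNA and starts its transcription, was at 1.01, 2.03, 39.8, 38.0 and 23.0 RPM in cow and rose at the same step as the cow mitochondrial rows, from the 2-4 cell to the 8-16 cell stage. Pig TFAM was at 0.296 (1 read), 6.77, 45.5, 160 and 82.3 RPM. POLRMT, the mitochondrial RNA polymerase, was at 2.64, 3.38, 13.6, 16.4 and 10.7 RPM in cow and at 0.592 (2 reads), 0, 2.84, 16.0 and 13.7 RPM in pig, where its span overlaps HCN2. Both genes were higher in the morula than in the oocyte library of both species.

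TFB2M, the partner of POLRMT at the promoter, stayed between 16.9 and 37.2 RPM in cow, and in pig went from 0 reads in the oocyte to 136 RPM in the morula library. At the pig blastocyst it stood at 10.5 RPM, at least 11.8-fold higher than in the oocyte. TEFM, an elongation factor, was at 32.5, 32.0, 19.3, 7.95 and 5.50 RPM in cow and at 65.4, 4.83, 9.48, 57.3 and 8.04 RPM in pig, where its span overlaps ATAD5. Both blastocyst libraries were called lower than the oocyte, but the pig morula library lay near the pig oocyte level. LRPPRC, which stabilises mitochondrial mRNAs, was at 47.7, 49.1, 274, 677 and 284 RPM in cow, where its span overlaps SNORD35, and at 157, 126, 86.9, 608 and 256 RPM in pig. Its highest library was thus the morula in both species. Its partner SLIRP was at 5.27, 3.61, 4.05, 8.46 and 16.2 RPM in cow, and at 7.99, 1.69, 6.32, 46.6 and 19.3 RPM in pig, where it overlaps SNW1. FASTKD1, an RNA-binding protein of mitochondria, fell in pig from 62.8 to 1.88 RPM, and TBRG4, of the same family, went from 2 reads to 30.8 RPM.

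Among genes of mitochondrial DNA copying, TWNK, the helicase, was at 7.71, 17.6, 3.31, 8.72 and 17.3 RPM in cow, with its lowest value in the 8-16 cell library and nearly equal values in the 2-4 cell and blastocyst libraries. Pig TWNK, which overlaps MRPL43, was at 46.2, 15.5, 32.5, 69.6 and 42.1 RPM. The pig oocyte and blastocyst values overlap in their intervals (39.5 to 54.0 and 36.0 to 49.2), and the 2-4 cell and morula libraries lay below and above them. SSBP1, the single-strand DNA-binding protein, rose in cow from 8.32 to 51.8 RPM with 104 RPM in the 8-16 cell library. POLG, the DNA polymerase, went from 34.05 to 11.0 RPM in pig, where it overlaps FANCI. PPARGC1A, a coactivator of mitochondrial gene programmes, fell in cow from 134 RPM in the oocyte through 162, 36.1 and 4.87 RPM to 6.91 RPM at the blastocyst, while its relative PPARGC1B rose from 1.62 to 36.3 RPM. HSD17B10, a subunit of the enzyme that trims tRNA ends, rose in cow from 2.03 to 41.1 RPM. In pig PPARGC1A had 0 reads in the oocyte, morula and blastocyst libraries and 8.46 RPM in the 2-4 cell library.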

How the data were processed

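RNA was isolated with PicoPure columns, made into cDNA with the Ovation RNA-Seq System V2 and amplified by PCR, per the labels' protocols. Trim Galore 0.6.4 and HISAT2 2.1.0 are named, per the submitters' processing notes; counting, annotation and strand are not given in the sources used here. The authors deposited log2 values, 1 column per stage. In each column all values above the lowest were whole multiples of 1 read (within 0.02 reads, or the rounding of the file for high counts), so they are log2 reads per 1000000 library reads, with 0 reads written as 0.9 of a read. Reads were recovered, 0 set back to 0, and changes computed as differences of log2(RPM + 1). A floor of 3 reads gives what 0 reads allow. With 1 library per group no test was run. The call rule recovered known changes when tested on simulated data. Spread between replicate libraries is not known here, so that result does not show how reliable the calls are. Depth was 3002751 to 14182046 reads.

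The members, the gene lists and the thresholds were chosen with earlier results of these data known. Pig identifier rows were classed by span and neighbours, which goes beyond the planned rule of leaving them unclassified. Named genes were all mRNA and rRNA rows, and the 3 tRNA rows per species with the highest mean RPM, largest range and smallest range. The 4 largest called changes per nuclear list and 10 fixed regulators were also named. Alternatives were other denominators, scalings, pseudocounts, minimums, thresholds and equal depth. Python 3.11.15, numpy 2.4.6, pandas 2.3.3 and scipy 1.17.1 were used.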

Additional observations from a re-analysis of the deposited data

Results flagged for a closer look

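The long rRNA moved in opposite directions in both species from the oocyte to the 2-4 cell stage, by -1.87 on the log2(RPM + 1) scale in cow and by 1.17 in pig. It was the only rRNA or mRNA row with changes of at least 1 in opposite directions at any step. With 1 library per stage and species this difference between the species was not tested.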

How the results depend on the processing

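With gene reads as denominator the mitochondrial share was 6.09%, 3.66%, 14.7%, 12.8% and 37.0% in cow and 7.02%, 14.8%, 13.4%, 18.3% and 20.05% in pig, in stage order. From oocyte to blastocyst, scaling to non-mitochondrial gene reads gave changes of 3.20 for summed cow rRNA, 3.10 for cow mRNA, 1.68 for cow tRNA, 6.33 for pig rRNA and 0.89 for pig mRNA, in place of 2.80, 2.70, 1.28, 6.22 and 0.78. Scaling to the median of the other genes gave 2.60, 2.50, 1.08, 5.97 and 0.53, and turned pig tRNA from 0.12 to -0.12. The cow rRNA to mRNA fold of 1.07 turned to 0.907 without overlapping rows, 0.980 without the long rRNA and 0.981 without COX1; the pig fold of 43.4 became 44.5, 34.4 and 44.9. A threshold of 1 raised the pig rows called higher from 2 to 11 and those called lower from 2 to 5, and a minimum of 5 RPM left 1 lower. Cow genes of mitochondrial transcription, RNA handling and DNA maintenance called lower went from 5 to 3 with non-mitochondrial scaling. Over the 5 comparisons in both species, non-mitochondrial scaling moved 3 of 20 counts of called rows by over 1.5 times and a threshold of 1 moved 13. Equal depth moved none of the class sums. A pseudocount of 0.5 could hardly move them, as the lowest class sum was 119 RPM, but it moved 2 of the 20 counts of called rows. No paired analysis was possible because each group has 1 library. Limits: the placing of reads that also match nuclear copies of mitochondrial sequence is not given in the sources used here, cDNA amplification and PCR copy molecules, and at 1 to 3 reads a row's level is not resolved.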

Other observations

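Mitochondrial rows ranked high among all rows by reads. Of the 10 rows with the most reads, mitochondrial rows were 3, 3, 7, 7 and 8 in the cow libraries and 5, 7, 7, 10 and 9 in the pig libraries, in stage order. A cow rRNA row held the first place in all 5 cow libraries, the long one in the oocyte, morula and blastocyst libraries and the short one in the other two. The pig long rRNA went from rank 148 in the oocyte library through ranks 35, 34 and 4 to rank 1 in the blastocyst library, and the pig short rRNA from rank 326 through 186, 94 and 9 to rank 3. Ranks count reads without regard to gene length and are given as values of these libraries.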
